A study of Mus musculus with 12 samples.

Results

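The 56 genes described here encode assembly factors of the ribosome, most of them proteins of the nucleolus. They were chosen by name, as known subunits of snoRNPs, of the small subunit processome and of large subunit precursors. Earlier results of these data were known at that choice, so the counts of called members are a description. All 56 were found among the 38481 mouse genes with a listed transcript, and 54 of them had enough reads to be tested. Pes1 and Noc2l did not.

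The cells were C2C12, a mouse myoblast line that grows as single cells and can differentiate into myotubes. They carried an siRNA for 3 days and were then kept for 12 hours in rapamycin at 20 nM or in its solvent ethanol. Crossing the control siRNA against Renilla luciferase (Luc) and 1 siRNA against Crebl2 with both treatments gave 4 groups of 3 libraries. Because a single Crebl2 siRNA sequence was used, effects of the knockdown and effects of that sequence on other transcripts cannot be told apart. Nothing in the labels says whether the 3 libraries of a group came from separate cultures, so each p-value reflects variation among these libraries, which may be technical.

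Ribosome assembly starts in the nucleolus on the nascent precursor of ribosomal RNA. Small nucleolar ribonucleoproteins (snoRNPs) modify the precursor, the small subunit processome folds and cleaves its first part, and a separate set of factors, many of them helicases and GTPases, builds the large subunit on the rest. Growing cells spend much of their resources on this pathway, and mTORC1, the kinase complex that rapamycin inhibits, is a known driver of it. Crebl2 is a small protein of the bZIP transcription factor class related to CREB.

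Library totals ran from 33404087 to 42891015 counts. Levels are given as CPM, read counts scaled to library size (edgeR's CPM) after TMM scaling. The targeted gene, Crebl2, was read at 23.8 to 26.2 CPM in the Luc ethanol libraries, 4.87 to 7.41 after its own siRNA, 36.3 to 40 in the Luc rapamycin libraries and 8.97 to 10.7 with both agents. All 8 myoblast markers were expressed. Their summed level was 4940 to 5280 CPM in the Luc ethanol libraries and 4680 to 5310 with the Crebl2 siRNA in ethanol. In rapamycin it was 3630 to 3920 and 4260 to 4430, in the same siRNA order. These markers did not move alike. With the Luc siRNA, Cdh15, Itga7, Chrna1 and Msc were lower in rapamycin, whereas Myod1, Myf5, Des and Cdh2 overlapped the ethanol libraries. In ethanol, Msc was at 7.13 to 7.49 CPM with the Luc siRNA and 13.1 to 15 with the Crebl2 siRNA. The 8 markers of differentiating muscle summed to 552 to 727 CPM in the Luc ethanol libraries, 219 to 262 with the Luc siRNA in rapamycin, 80.4 to 95.2 with the Crebl2 siRNA in ethanol and 59.1 to 70.9 with both agents. Of these 8, Ckm, Myh3 and Tnnt2 had a mean under 1 CPM, but Myh3 and Tnnt2 have only 1.2% and 6.2% of exonic bases that belong to a single listed transcript, so their reads are mostly missing from the counts. The part of the muscle markers' shifts in the results that follow was not tested. Markers of macrophages, endothelial cells, epithelial cells and adipocytes, 4 genes each, all had a mean under 1 CPM. Ptprc, Adgre1, Tek and Cidec were at 0, but with 8.4%, 3.5%, 1% and 3% of such bases their counts say nothing on expression. Markers with 100% of such bases were Cdh5 (0.0599 CPM) and Kdr (0.0813) for endothelial cells, Epcam (0.00694), Krt8 (0.14) and Cldn4 (0.113) for epithelial cells, and Adipoq (0.0196) and Fabp4 (0.605) for adipocytes. No macrophage marker had more than 24.5%.

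Assembly factor mRNAs were higher with the Crebl2 siRNA and lower with rapamycin. The members together held 0.554%, 0.564% and 0.572% of all counts in the 3 Luc libraries in ethanol. With the Crebl2 siRNA in ethanol the share was 0.719%, 0.727% and 0.705%. Rapamycin libraries with the Luc siRNA stood at 0.468%, 0.455% and 0.46%, and those with the Crebl2 siRNA at 0.541%, 0.566% and 0.535%. The first 3 of these groups did not overlap, whereas the group with both agents overlapped the Luc libraries in ethanol. In bulk RNA, a lower level could come from fewer cells of a type or from less RNA per cell, and these cannot be told apart.

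**Figure D1:**
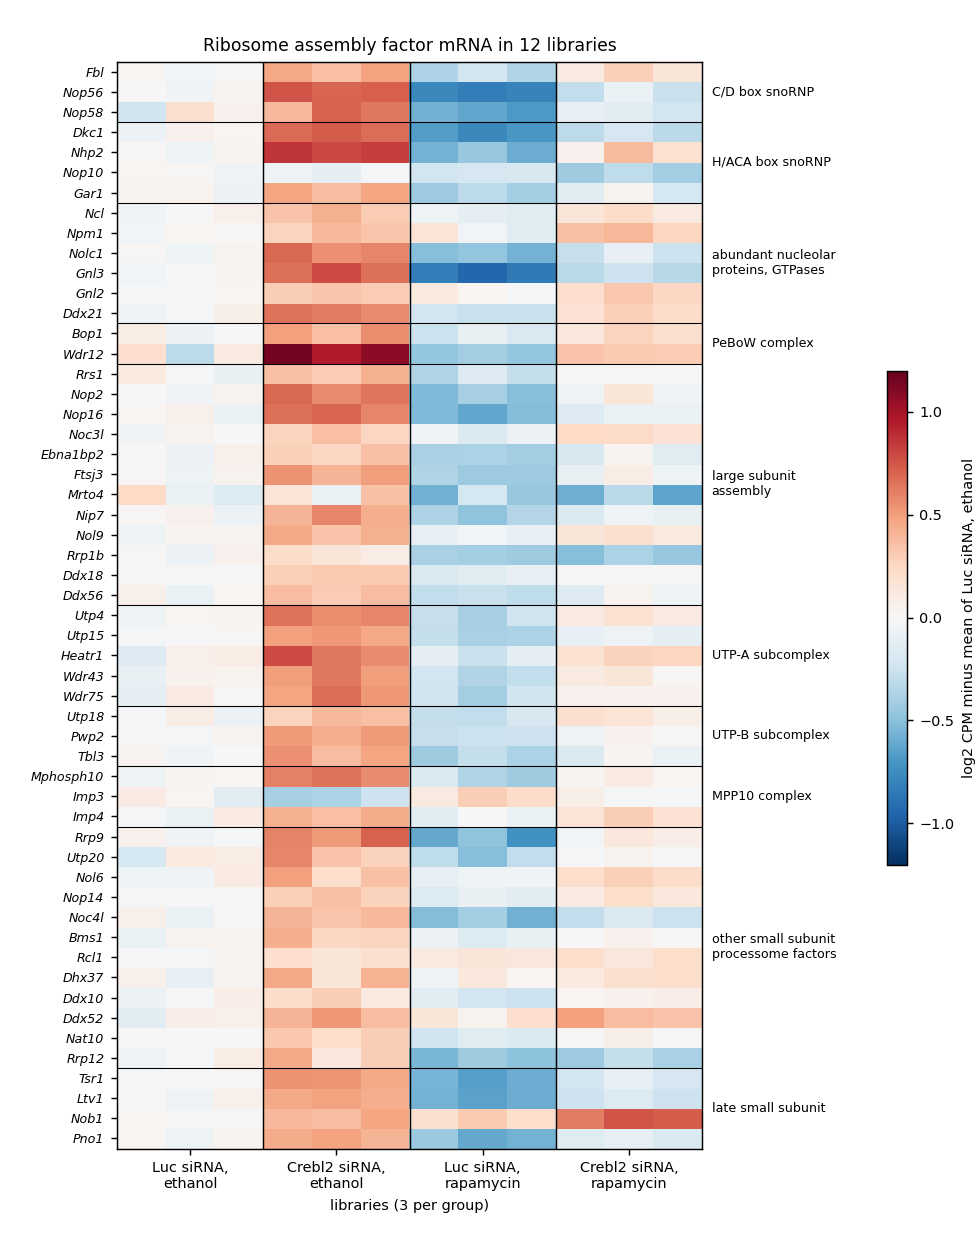
Each row is 1 of the 54 tested members and each column 1 library, 3 per group; the colour gives log2 CPM minus the mean log2 CPM of the Luc libraries in ethanol, red for higher and blue for lower. Most rows are red with the Crebl2 siRNA in ethanol, blue with the Luc siRNA in rapamycin and pale with both agents, while Imp3 runs the other way.

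Of the 54 tested members, 51 rose with the Crebl2 siRNA in ethanol, 1 fell (Imp3), and 2 did not pass (Nop10 and Mrto4). The test was the quasi-likelihood test of edgeR with Benjamini-Hochberg adjustment over all 13247 tested genes, and a gene was called at an adjusted p under 0.05. Over all tested genes, 21.4% were called higher and 17% lower in that comparison. The median log2 fold change of the members was 0.43, from −0.34 to 1.05, beside 0.01 over all genes. Wdr12 was the 1 member whose change reached 2-fold.

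In rapamycin, 46 members rose with the Crebl2 siRNA, 2 fell (Nop10 and Imp3) and 6 did not pass (Mrto4, Rrp1b, Bms1, Rcl1, Dhx37 and Rrp12). Among all genes 16.3% were called higher and 16.8% lower, and the medians were 0.31 for the members and −0.01 for all genes. The calls in the lower direction did not hold throughout. Without Luc rapamycin library 2 or 3, or without Crebl2 rapamycin library 1 or 3, neither Imp3 nor Nop10 was called, with edgeR adjusted p-values of 0.065 to 0.22 for Imp3 and 0.066 to 0.11 for Nop10. Without Luc rapamycin library 1 (Nop10 lost, 0.051) or Crebl2 rapamycin library 2 (Imp3 lost, 0.15), 1 member was called lower.

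Rapamycin with the Luc siRNA gave the reverse direction: 40 members fell, 3 rose (Rcl1, Imp3 and Nob1) and 11 did not pass. Over all genes 21.6% were called lower and 19.5% higher. The members' median was −0.30, from −0.87 to 0.24, against 0.02 for all genes. The 11 without a call were Ncl, Npm1, Gnl2, Noc3l, Nol9, Heatr1, Imp4, Nol6, Bms1, Dhx37 and Ddx52. Without Luc rapamycin library 2 or 3 the count of members that rose went from 3 to 1, since Rcl1 and Imp3 were then not called (adjusted p 0.11 to 0.14 and 0.083 to 0.14 with edgeR).

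With the Crebl2 siRNA present, rapamycin lowered 45 members, raised Imp3 and Nob1, and left 7 without a call (Npm1, Gnl2, Noc3l, Nol6, Rcl1, Dhx37 and Ddx52). Over all genes 25.6% were called lower and 19.7% higher, and the medians were −0.44 and −0.01. The 4 comparisons share libraries in pairs, so their counts are not independent of each other.

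**Figure D2:**
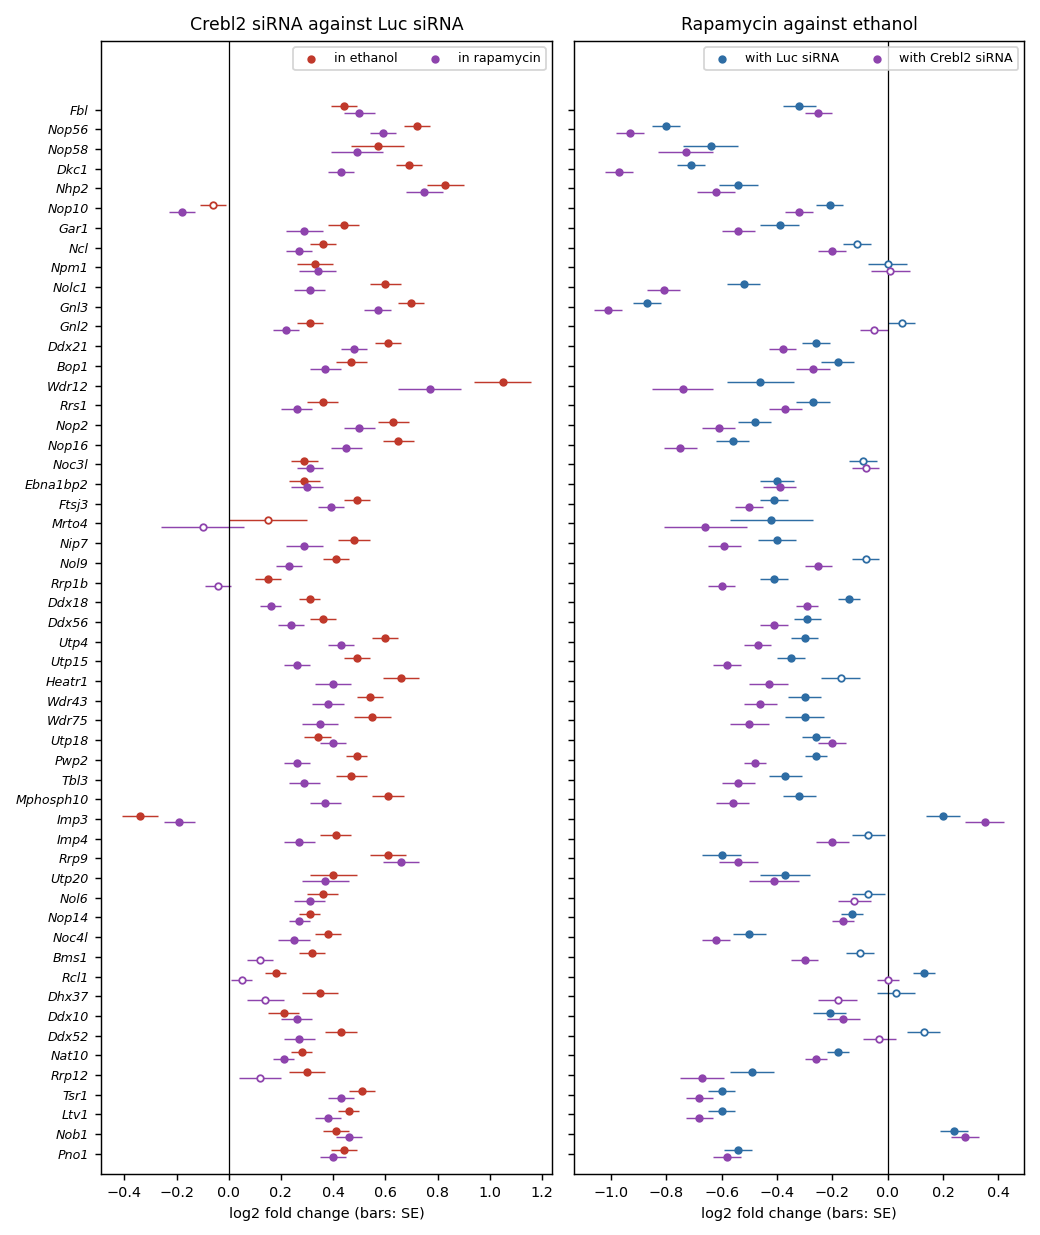
Log2 fold change of each tested member with its standard error, for the Crebl2 siRNA against the Luc siRNA (left) and for rapamycin against ethanol (right); filled points passed an adjusted p of 0.05 with edgeR and open points did not. On the left most points lie to the right of 0, and those of Imp3 and Nop10, and of Mrto4 and Rrp1b in rapamycin, lie to the left. On the right most lie to the left of 0, with Nob1 and Imp3 at the opposite side for both siRNAs. With the Luc siRNA, Rcl1, Ddx52, Gnl2 and Dhx37 also lie to the right of 0.

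Whether the rapamycin response itself differed with the Crebl2 siRNA was tested as an interaction. No member was called with edgeR, at 0.589% of all genes called lower and 0.611% higher. By edgeR 14 of the 54 tested members had an unadjusted p under 0.05, a larger share than the 14.3% of all genes. The interaction was negative in 45 of the 54, beside 56.3% of all genes. All members were read in the same libraries, so these counts are not independent and were not tested as a set. DESeq2 called 1 member, Nolc1, at −0.27 with an adjusted p of 0.043. By edgeR its interaction was −0.29 ± 0.08 (SE) on the log2 scale, with an adjusted p of 0.082, the smallest among the members, and this p ran from 0.043 to 0.41 over the alternatives. The median interaction was −0.13 beside −0.03 over all genes. It was −0.07, −0.05 and −0.07 without Luc rapamycin library 1, 2 or 3, −0.04 and −0.05 without Crebl2 rapamycin library 1 or 3, and −0.07 with no count filter or with TMM factors computed without members and ribosomal protein genes. Dkc1 (−0.26 ± 0.07) and Heatr1 (−0.26 ± 0.10) were the next in size after Nolc1 and Wdr12 (−0.28 ± 0.17). The standard errors of 0.05 to 0.22 set the size that could be seen.

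Promoters of the members were searched for the E-box CACGTG, a sequence bound by MYC and related factors that are known regulators of ribosome production. The motif is its own reverse complement, so both strands were covered at once. RefSeq windows on GRCm38.p6, from 250 bases before to 50 bases after a gene's start, were at hand for 48 of the 56 members. Of these, 10 held the motif (20.8%), as did 18 of 88 windows of other ribosome assembly genes (20.5%). Among all tested genes with a window the share was 11.0% (1013 of 9201), and among all windows of this length it was 7.2%. A match is a description of the letters and not evidence of a bound site. Most members with a window lacked the motif. The 10 matches, found in members of several complexes, are shown with the motif in capitals, 5′ to 3′ on the strand of the gene. For Imp4 (chr1:34439698-34439723), Nop2 (chr6:125131813-125131838) and Utp18 (chr11:93885771-93885796, minus strand) the motif lay before the start:
Imp4: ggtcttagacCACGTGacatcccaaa
Nop2: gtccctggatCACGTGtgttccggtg
Utp18: gagcgccggtCACGTGgcttgcggcg
In the other 7 it lay after the start, within the first transcribed bases by RefSeq:
Utp4: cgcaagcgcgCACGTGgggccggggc
Ltv1: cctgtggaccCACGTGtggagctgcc
Utp20: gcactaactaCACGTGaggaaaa
Pes1: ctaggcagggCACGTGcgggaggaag
Pno1: tacaaccacgCACGTGttcctct
Tsr1: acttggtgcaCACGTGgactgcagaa
Wdr43: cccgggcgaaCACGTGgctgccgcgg
The bases beside the motif differed among the 10.

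The first bases of the motif stood 121, 60 and 20 bases before the start in Imp4, Nop2 and Utp18. Nop2 was also the member whose level followed the mean of the members, of which it is a part, most closely over the 12 libraries (Pearson r = 0.993, a description). Its 250 bases before the RefSeq start (chr6:125131633-125131882, plus strand) are shown with the E-box in capitals. Those of Ncl (chr1:86359456-86359705, minus strand), the most abundant member, and of Imp3 (chr9:56937250-56937499, plus strand) follow. Imp3, the member that moved against the rest, was added for that after its values were seen. The gene spans given below are from another annotation (GENCODE), whose starts differ for Ncl and Imp3, and the Imp3 stretch overlaps its span. Neither Ncl nor Imp3 holds the motif in its window, which says only that these letters are absent there. With the Crebl2 siRNA in ethanol, tested members with the motif changed by 0.34 (Utp18) to 0.63 (Nop2). Those with a window but no motif changed by −0.34 (Imp3) to 1.05 (Wdr12). With rapamycin on the Luc siRNA the ranges were −0.60 (Tsr1 and Ltv1) to −0.07 (Imp4) and −0.87 (Gnl3) to 0.24 (Nob1). Whether motif and response go together was not tested.
Nop2: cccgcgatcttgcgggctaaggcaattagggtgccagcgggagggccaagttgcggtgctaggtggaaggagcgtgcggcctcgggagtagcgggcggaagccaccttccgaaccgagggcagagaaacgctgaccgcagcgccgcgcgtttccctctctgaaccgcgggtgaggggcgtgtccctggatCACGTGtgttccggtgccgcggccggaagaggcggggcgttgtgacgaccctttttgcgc
Ncl: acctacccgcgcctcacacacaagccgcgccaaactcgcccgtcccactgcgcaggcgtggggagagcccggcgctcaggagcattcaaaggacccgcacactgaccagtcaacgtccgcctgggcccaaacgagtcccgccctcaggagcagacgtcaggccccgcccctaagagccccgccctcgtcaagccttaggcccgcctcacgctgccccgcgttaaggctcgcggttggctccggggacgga
Imp3: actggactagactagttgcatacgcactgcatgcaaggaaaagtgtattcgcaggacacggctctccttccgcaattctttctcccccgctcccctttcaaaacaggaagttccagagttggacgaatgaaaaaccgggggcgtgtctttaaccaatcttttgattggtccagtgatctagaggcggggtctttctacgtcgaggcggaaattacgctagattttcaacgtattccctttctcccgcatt

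The C/D box snoRNP proteins carry out ribose methylation of ribosomal RNA, and all 3 followed the common pattern. Fibrillarin (Fbl, chr7:28169710-28179269 on GRCm38), the methyltransferase, was read at 155, 149 and 154 CPM in the Luc ethanol libraries, called controls from here on, and at 211, 196 and 214 in those given the Crebl2 siRNA. Rapamycin libraries gave 118, 130 and 119 CPM for Luc and 165, 186 and 169 for Crebl2. The 4 groups did not overlap, and the group with both agents lay between the other Crebl2 libraries and the controls. Fbl rose by 0.44 ± 0.05 (log2, SE; edgeR adjusted p = 1.7e-05) with the Crebl2 siRNA and changed by −0.32 ± 0.06 with rapamycin (adjusted p = 0.00022).

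Nop56, a scaffold protein of the same particle, responded more. It stood at 113, 109 and 115 CPM in the controls, 189, 182 and 185 with the Crebl2 siRNA, 65.7, 63.2 and 64.4 with rapamycin and 91.4, 106 and 93.3 with both. The 4 groups were fully separate, with both agents together just below the controls. The Crebl2 siRNA changed Nop56 by 0.72 ± 0.05 and rapamycin by −0.80 ± 0.05 on the log2 scale (edgeR adjusted p = 6.7e-08 and 9.8e-09). Its partner scaffold Nop58 gave 0.57 ± 0.10 and −0.64 ± 0.10, both called. All counts of Nop58 lay on 1 transcript with 7826 bases of its own, so its values describe that part of the gene. In Nop56 only 56.1% of exonic bases belong to a single listed transcript, so part of its reads is missing from the counts.

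The H/ACA box snoRNP converts uridine to pseudouridine, and its 4 core proteins did not move alike. Dyskerin (Dkc1, chrX:75095854-75109777), the enzyme, was at 76, 82.8 and 81.1 CPM in the controls, 128, 132 and 127 with the Crebl2 siRNA, 50.3, 46.7 and 49.1 with rapamycin and 64.2, 69.4 and 63.7 with both. All 4 groups were separate. Its change with the Crebl2 siRNA was 0.69 ± 0.05 and with rapamycin −0.71 ± 0.05 (edgeR adjusted p = 5.2e-08 and 1.8e-08). The rapamycin change was −0.97 ± 0.05 when the Crebl2 siRNA was present.

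Nhp2, a core RNA-binding protein of that particle, had the second largest rise of all members in ethanol. It went from 68.4, 65.4 and 69.4 CPM to 123, 117 and 120 with the Crebl2 siRNA, and stood at 45.6, 49.3 and 44.7 in rapamycin and 70.3, 88.1 and 77 with both. The Crebl2 libraries were above the Luc libraries under each treatment, by 0.83 ± 0.07 in ethanol and 0.75 ± 0.07 in rapamycin (edgeR adjusted p = 2.1e-07 and 7.6e-07). Gar1, the third partner of Dkc1, rose by 0.44 ± 0.06 and fell by 0.39 on the log2 scale with rapamycin.

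Nop10, the smallest core protein of the H/ACA particle, did not pass with the Crebl2 siRNA in ethanol. Its values were 77.7, 77.3 and 74.2 CPM in the controls and 73.3, 70.6 and 75.5 with the Crebl2 siRNA, which overlap. The difference was −0.06 ± 0.05 (edgeR adjusted p = 0.31). Rapamycin libraries stood lower, at 65.3, 66.5 and 66.8 CPM for Luc and 56.7, 61.8 and 57.3 with the Crebl2 siRNA, and did not overlap those in ethanol. Nop10 fell with rapamycin (−0.21 ± 0.05, adjusted p = 0.0019, and −0.32 ± 0.05 with the Crebl2 siRNA, adjusted p = 3.6e-05). Its lower level with the Crebl2 siRNA in rapamycin, −0.18 ± 0.05 with an adjusted p of 0.0085, lost its call without any 1 of the 3 Luc rapamycin libraries or without Crebl2 rapamycin library 1 or 3 (0.051 to 0.11), and with no count filter (0.073).

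Of the abundant nucleolar proteins and GTPases, all 6 rose with the Crebl2 siRNA under both treatments, and 3 fell with rapamycin alone. Nucleolin (Ncl, chr1:86344719-86359400), an RNA-binding protein that makes up much of the nucleolus, had the highest level. It was read at 1010, 1040 and 1090 CPM in the controls, 1330, 1410 and 1290 with the Crebl2 siRNA, 1000, 966 and 947 with rapamycin and 1160, 1220 and 1130 with both. The Crebl2 groups lay above the Luc groups with no overlap, and the rapamycin libraries with the Luc siRNA lay just below the controls. The rise was 0.36 ± 0.05 in ethanol (edgeR adjusted p = 2.4e-05). With rapamycin the difference was −0.11 ± 0.05 (adjusted p = 0.08), which passed without Luc rapamycin library 1 (0.043) and without Crebl2 rapamycin library 2 (0.033) or 3 (0.048). It also passed with no count filter (0.027) and with TMM factors without members and ribosomal protein genes (0.04). The rapamycin fall with the Crebl2 siRNA (−0.20 ± 0.05, adjusted p = 0.0026) did not pass without Crebl2 rapamycin library 3 (0.066).

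Nucleostemin (Gnl3, chr14:31012433-31019152), a GTPase of proliferating cells, had the largest rapamycin response of the members. Its control libraries gave 96.4, 98.3 and 101 CPM, and those with the Crebl2 siRNA 156, 170 and 156. In rapamycin the values were 55.5, 51.4 and 54.8 CPM for Luc and 79, 82.7 and 78.1 with the Crebl2 siRNA. None of the 4 groups overlapped, and the group with both agents stayed below the controls. Gnl3 changed by −0.87 ± 0.05 with rapamycin (edgeR adjusted p = 1.8e-09) and by −1.01 ± 0.05 with rapamycin on the Crebl2 siRNA, the 1 member to fall by 2-fold there (adjusted p = 2.4e-10). Its rise after the Crebl2 siRNA was 0.70 ± 0.05 in ethanol (adjusted p = 3.6e-08).

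Its relative Gnl2, a GTPase of large subunit assembly, gave another picture. Gnl2 was read at 106, 106 and 109 CPM in the controls and 131, 135 and 132 with the Crebl2 siRNA, and at 116, 109 and 106 and 123, 134 and 127 in rapamycin in the same order. The Crebl2 libraries were higher than the Luc libraries, and rapamycin and ethanol libraries overlapped for both siRNAs. Rapamycin differences were 0.05 ± 0.05 and −0.05 ± 0.05, neither of which passed (edgeR adjusted p = 0.43 and 0.42).

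Nolc1, a chaperone of snoRNPs, was at 146, 139 and 148 CPM in the controls, 232, 211 and 216 with the Crebl2 siRNA, 101, 104 and 97.1 with rapamycin and 119, 135 and 121 with both. Both agents together left it below the controls with no overlap. It rose by 0.60 ± 0.06 with the Crebl2 siRNA in ethanol and by 0.31 ± 0.06 in rapamycin (edgeR adjusted p = 7.1e-07 and 0.00052). The helicase Ddx21 rose by 0.61 ± 0.05 and changed by −0.26 ± 0.05 with rapamycin, both called.

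Nucleophosmin (Npm1), a histone and ribosome chaperone, rose with the Crebl2 siRNA and did not pass with rapamycin. Its values were 23.5, 24.3 and 24.1 CPM in the controls and 28.8, 31.5 and 30.1 with the Crebl2 siRNA, and 26.6, 23.5 and 21.7 and 30.6, 31.6 and 28.7 in rapamycin. Rapamycin libraries overlapped their ethanol counterparts for both siRNAs. The rise was 0.33 ± 0.07 in ethanol (edgeR adjusted p = 0.0015), and the rapamycin difference was 0.00 ± 0.07 (adjusted p = 0.99). Only 36.9% of Npm1's exonic bases were countable and 98.3% of its counts fell on 1 transcript with 294 bases of its own, so these values describe that part of the gene.

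**Figure D3:**
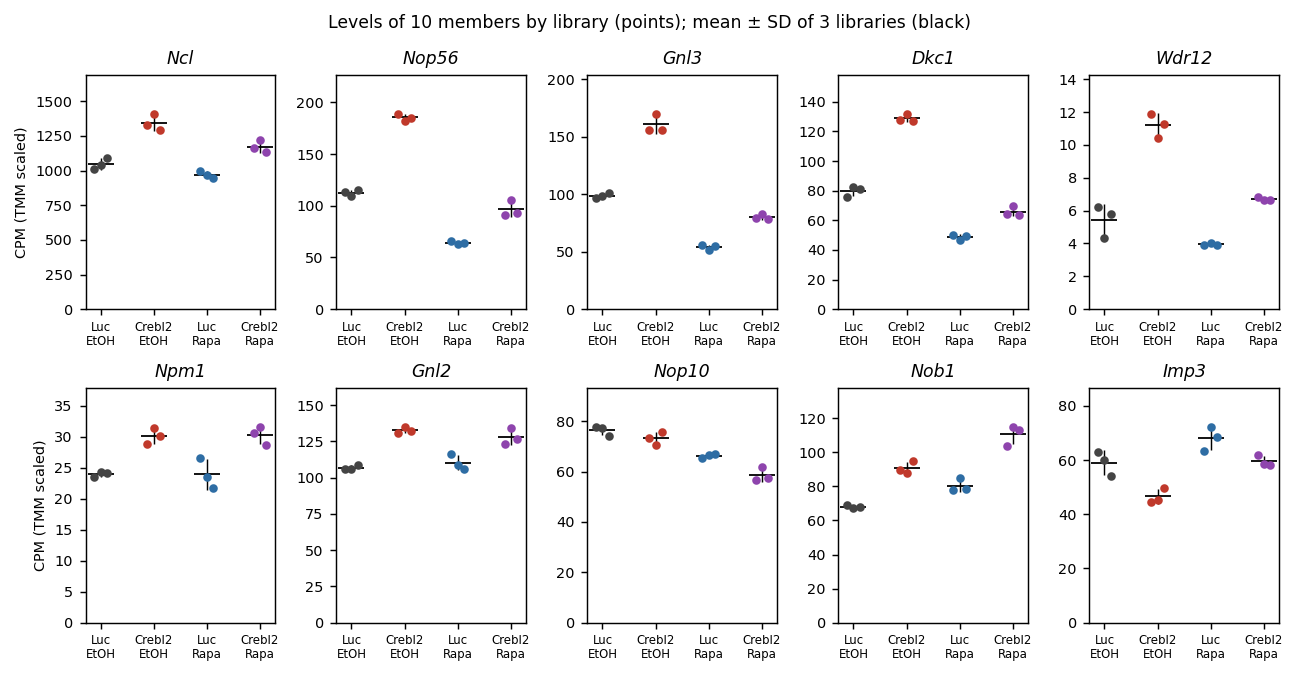
TMM-scaled CPM of 10 members in every library (points) with the mean and SD of each group of 3 (black), for the Luc and Crebl2 siRNAs in ethanol (EtOH) and rapamycin (Rapa); each axis starts at 0. Nop56, Gnl3, Dkc1 and Wdr12 are highest with the Crebl2 siRNA in ethanol and lowest with the Luc siRNA in rapamycin, Npm1 and Gnl2 are separate by siRNA and overlap by treatment, Nob1 is highest with both agents, and Imp3 is lowest with the Crebl2 siRNA in ethanol.

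PeBoW is the trimer of Pes1, Bop1 and Wdr12 that large subunit rRNA processing needs, and both measurable subunits followed the common pattern. Wdr12 had the largest fold change of all members with the Crebl2 siRNA. It was read at 6.2, 4.33 and 5.8 CPM in the controls and 11.9, 10.4 and 11.3 with the Crebl2 siRNA, and at 3.91, 4.03 and 3.9 and 6.83, 6.67 and 6.66 in rapamycin. The Crebl2 libraries lay above the Luc libraries under each treatment, and both agents together gave values above all controls. The change with the Crebl2 siRNA was 1.05 ± 0.11 in ethanol and 0.77 ± 0.12 in rapamycin (edgeR adjusted p = 4.2e-06 and 0.00016). Its value per countable kilobase was low, at 0.869 CPM, and 92% of its counts came from 1 transcript with 7264 bases of its own. Reads shared by its listed transcripts are missing, so these values describe part of the gene.

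Bop1 (chr15:76452989-76477277) was at 256, 230 and 238 CPM in the controls, 339, 310 and 355 with the Crebl2 siRNA, 201, 227 and 212 with rapamycin and 263, 291 and 275 with both. Rapamycin libraries with the Luc siRNA lay below the controls, and the Crebl2 group in ethanol above all others. The rise was 0.47 ± 0.06 (edgeR adjusted p = 2.5e-05). The rapamycin fall of Bop1 with the Luc siRNA was small (−0.18 ± 0.06, adjusted p = 0.032). It did not pass without Luc ethanol library 1 (0.13) or 3 (0.053), without Luc rapamycin library 1 (0.072), or with the replicate number as a block (0.056).

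Pes1 had a mean of 0.417 counts per library and was not tested. In the annotation used here, 0.4% of its exonic bases belong to a single listed transcript. Noc2l, a large subunit factor with 4.7% countable bases, had a mean of 1.33 counts. No statement on the level of either mRNA can be made from these counts.

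Among the other large subunit factors, 11 of 12 tested members rose with the Crebl2 siRNA in ethanol and 10 fell with rapamycin on the Luc siRNA. Ftsj3 (chr11:106249142-106256079), an rRNA methyltransferase and the most abundant of them by CPM, gave 157, 149 and 160 CPM in the controls, 226, 206 and 220 with the Crebl2 siRNA, 121, 115 and 115 with rapamycin and 146, 165 and 150 with both. The first 3 groups were separate, and the group with both overlapped the controls. Ftsj3 rose by 0.49 ± 0.05 (edgeR adjusted p = 4.4e-06) and changed by −0.41 ± 0.05 with rapamycin (adjusted p = 1.6e-05). Larger rises were read for Nop16 (0.65 ± 0.06) and for Nop2 (0.63 ± 0.06), an rRNA methyltransferase linked to proliferation. Rapamycin changed them by −0.56 ± 0.06 and −0.48 ± 0.06.

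Nip7, an RNA-binding factor, rose by 0.48 ± 0.06. Nol9, the polynucleotide kinase that acts on the spacer between the large subunit rRNAs, rose by 0.41 ± 0.05. Rrs1, which helps to bring in the small ribosomal RNA of the large subunit, rose by 0.36 ± 0.06 and the helicases Ddx56 and Ddx18 rose by 0.36 ± 0.05 and 0.31 ± 0.04. Ebna1bp2 and Noc3l, structural factors of early precursors, rose by 0.29 ± 0.06 and 0.29 ± 0.05. Of these 7, rapamycin on the Luc siRNA lowered all except Nol9 (−0.08 ± 0.05, edgeR adjusted p = 0.25) and Noc3l (−0.09 ± 0.05, adjusted p = 0.15).

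Rrp1b was a member that fell with rapamycin and differed little by siRNA. It was at 58.1, 54.9 and 59.7 CPM in the controls, 67.1, 63.5 and 61.2 with the Crebl2 siRNA, 43.8, 43.3 and 42.7 with rapamycin and 40.5, 44.2 and 41.9 with both. The ethanol libraries were all above the rapamycin libraries, and within rapamycin the siRNA groups overlapped. Rapamycin changed it by −0.41 ± 0.05 (edgeR adjusted p = 1e-05). Its rise with the Crebl2 siRNA in ethanol, 0.15 ± 0.05 with an adjusted p of 0.027, was lost in 13 of 21 alternatives (adjusted p up to 0.16), among them those without Luc ethanol library 1 or 2, without Crebl2 ethanol library 1, or without any 1 of the 6 rapamycin libraries (0.051 to 0.12).

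Mrto4, a factor that holds the place of a stalk protein on the large subunit, had the lowest counts of the tested members, with a mean of 132.7 per library and 23.8% countable bases. Its values were 4.62, 3.69 and 3.49 CPM in the controls and 4.36, 3.69 and 4.99 with the Crebl2 siRNA, and 2.61, 3.38 and 2.85 and 2.6, 3.13 and 2.52 in rapamycin. The siRNA groups overlapped under both treatments (0.15 ± 0.15 and −0.10 ± 0.16, edgeR adjusted p = 0.48 and 0.68). The rapamycin fall was −0.66 ± 0.15 with the Crebl2 siRNA (adjusted p = 0.0024) and −0.42 ± 0.15 with the Luc siRNA (adjusted p = 0.04). The latter did not pass without Luc ethanol library 1 (0.19), Luc rapamycin library 1 (0.11) or 3 (0.087), or Crebl2 ethanol library 1 (0.051), or with the replicate block (0.067).

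The small subunit processome starts with UTP-A, a subcomplex that binds the nascent rRNA precursor first. All 5 of its members here rose with the Crebl2 siRNA under both treatments and 4 fell with rapamycin on the Luc siRNA. Wdr43 (chr17:71616215-71659031) was at 110, 121 and 120 CPM in the controls, 165, 181 and 165 with the Crebl2 siRNA, 100, 91.2 and 95 with rapamycin and 126, 129 and 118 with both. The group with both overlapped the controls and the other groups were separate. Its changes were 0.54 ± 0.05 with the Crebl2 siRNA and −0.30 ± 0.06 with rapamycin (edgeR adjusted p = 2.2e-06 and 0.00042). Heatr1 rose most in this group (0.66 ± 0.07), followed by Utp4 (0.60 ± 0.05), Wdr75 (0.55 ± 0.07) and Utp15 (0.49 ± 0.05).

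For Heatr1 the rapamycin difference with the Luc siRNA, −0.17 ± 0.07, had an adjusted p of 0.067 by edgeR. It passed without Luc ethanol library 1 (0.011), Luc rapamycin library 1 (0.044) or any 1 of the 3 Crebl2 rapamycin libraries (0.042 to 0.048). The same difference passed with no count filter (0.0026), with genes at least 90% countable (0.049) and with TMM factors without members and ribosomal protein genes (0.036). Heatr1 fell when the Crebl2 siRNA was present (−0.43 ± 0.07, adjusted p = 0.00011).

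UTP-B, a subcomplex rich in WD-repeat proteins, joins next. Its 3 members here all rose with the Crebl2 siRNA and fell with rapamycin in each of the 4 comparisons. Utp18 (chr11:93859243-93885766) gave 80.9, 86.6 and 77.5 CPM in the controls, 98.2, 107 and 105 with the Crebl2 siRNA, 66.9, 66.4 and 71.5 with rapamycin and 93.4, 91.7 and 85.8 with both. The 2 siRNA groups were separate under each treatment. Utp18 rose by 0.34 ± 0.05 in ethanol and 0.40 ± 0.05 in rapamycin (edgeR adjusted p = 0.00014 and 4.1e-05). Its rapamycin fall with the Crebl2 siRNA, −0.20 ± 0.05 with an adjusted p of 0.0072, did not pass without Crebl2 rapamycin library 3 (0.1). Pwp2 and Tbl3 changed by 0.49 ± 0.04 and 0.47 ± 0.06 with the Crebl2 siRNA and by −0.26 ± 0.04 and −0.37 ± 0.06 with rapamycin. Tbl3 and the late factor Tsr1 lie partly over genes on the other strand (74.2% and 65.8% of their bases are free of them), and without a stated strand setting those reads cannot be assigned with certainty.

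MPP10 is a trimer that brings the snoRNP of the first cleavages into contact with the precursor, and its subunits went in opposite directions. Mphosph10, which gives the complex its name, rose by 0.61 ± 0.06 and changed by −0.32 ± 0.06 with rapamycin. Imp4 (chr1:34439851-34449356) was at 64, 61.9 and 70 CPM in the controls, 87.8, 84 and 88.6 with the Crebl2 siRNA, 59.9, 65.4 and 61.6 with rapamycin and 72.8, 79.8 and 73.4 with both. The Crebl2 groups lay above the Luc groups, and the Luc groups overlapped each other. Imp4 rose by 0.41 ± 0.06 (edgeR adjusted p = 3.4e-05), and its rapamycin difference on the Luc siRNA was −0.07 ± 0.06 (adjusted p = 0.37). Its fall with rapamycin on the Crebl2 siRNA (−0.20 ± 0.06, adjusted p = 0.0067) did not pass without Crebl2 rapamycin library 1 or 3 (0.083 each).

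Imp3 (chr9:56937475-56938398), the third subunit, was the 1 member that fell with the Crebl2 siRNA in ethanol and rose with rapamycin. Its libraries read 63.1, 60.1 and 54 CPM in the controls and 44.6, 45.4 and 49.7 with the Crebl2 siRNA in ethanol. In rapamycin they read 63.5, 72.2 and 68.5 with the Luc siRNA and 61.8, 58.5 and 58.2 with the Crebl2 siRNA. The Crebl2 libraries in ethanol were below all others, and the group with both agents lay inside the range of the controls. Imp3 changed by −0.34 ± 0.07 with the Crebl2 siRNA in ethanol (edgeR adjusted p = 0.00068) and by 0.35 ± 0.07 with rapamycin on the Crebl2 siRNA (adjusted p = 0.00036). These calls held in all 21 alternatives.

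The smaller differences of Imp3 did not hold throughout. In rapamycin the siRNA difference was −0.19 ± 0.06 (edgeR adjusted p = 0.031). It was not called in 9 of 21 alternatives, with adjusted p-values up to 0.22, among them those without Luc rapamycin library 2 or 3 or without any 1 of the 3 Crebl2 rapamycin libraries (0.065 to 0.22), with RLE scaling (0.061) and with DESeq2 (0.058). The rapamycin rise on the Luc siRNA was 0.20 ± 0.06 (adjusted p = 0.018) and was not called without Luc ethanol library 3 (0.098) or Luc rapamycin library 2 (0.14) or 3 (0.083). Over the 12 libraries Imp3 ran against the mean of the members (Pearson r = −0.938, a description, since the points are 4 groups).

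The other 12 factors of the small subunit processome all rose with the Crebl2 siRNA in ethanol, and 8 of them in rapamycin. Rapamycin on the Luc siRNA lowered 7, raised 1 (Rcl1) and left 4 without a call. Bms1 (chr6:118383381-118419474), a GTPase and the most abundant of the 12 by CPM, was at 137, 149 and 148 CPM in the controls and 195, 172 and 174 with the Crebl2 siRNA. In rapamycin it was at 138, 129 and 136 with the Luc siRNA and 144, 150 and 146 with the Crebl2 siRNA. The Crebl2 group in ethanol was above all others, and both rapamycin groups overlapped the controls. Bms1 rose by 0.32 ± 0.05 in ethanol (edgeR adjusted p = 0.00021), and its other siRNA difference, 0.12 ± 0.05 in rapamycin, had an adjusted p of 0.09. The latter passed without Luc rapamycin library 1 (0.044), with RLE scaling (0.038), with no count filter (0.037) and with the compared groups only (0.035). It also passed with TMM factors without members and ribosomal protein genes (0.032) and with DESeq2 (0.029).

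Rcl1, a partner of Bms1 in cleavage of the precursor, changed little. Its values were 61.8, 62 and 63.9 CPM in the controls, 71.9, 69.4 and 71.7 with the Crebl2 siRNA, 67.7, 69.3 and 68.6 with rapamycin and 72.3, 68.7 and 72.4 with both. The controls were below all other libraries, and the group with both agents overlapped the 2 groups that had received 1 agent. Rcl1 rose by 0.18 ± 0.04 with the Crebl2 siRNA (edgeR adjusted p = 0.0024). Its rise by 0.13 ± 0.04 with rapamycin (adjusted p = 0.018) was not called in 10 of 21 alternatives (up to 0.35), among them those without Luc ethanol library 1 or 2 or without any 1 of the 6 rapamycin libraries (0.052 to 0.14). With the Crebl2 siRNA the rapamycin difference was 0.00 ± 0.04.

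Dhx37, a helicase that releases the snoRNP from the precursor, was at 61.1, 55 and 60.2 CPM in the controls, 80.2, 65.1 and 78.5 with the Crebl2 siRNA, 56.8, 64 and 59.7 with rapamycin and 63.6, 67.1 and 67.8 with both. The Crebl2 libraries in ethanol were above the controls, and the 2 rapamycin groups overlapped each other. It rose by 0.35 ± 0.07 in ethanol (edgeR adjusted p = 0.0014). In rapamycin the siRNA difference was 0.14 ± 0.07 (adjusted p = 0.17, 0.048 without Luc rapamycin library 2 and 0.033 with no count filter). Rapamycin differences were 0.03 ± 0.07 and −0.18 ± 0.07. The second passed without Crebl2 ethanol library 2 (0.0024), with no count filter (0.032) and with genes at least 90% countable (0.044).

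Rrp9, a protein of the snoRNP that guides the first cleavages, was the most responsive of these 12, with a rise of 0.61 ± 0.07 in ethanol and 0.66 ± 0.07 in rapamycin and a change of −0.60 ± 0.07 with rapamycin. Noc4l and Rrp12, the latter needed for export of small subunits, fell by 0.50 and 0.49 on the log2 scale with rapamycin and rose by 0.38 ± 0.05 and 0.30 ± 0.07 with the Crebl2 siRNA. Utp20, a large scaffold, rose by 0.40 ± 0.09 and changed by −0.37 ± 0.09 with rapamycin. Nat10, an RNA acetyltransferase, and Nop14 rose by 0.28 ± 0.04 and 0.31 ± 0.04. Their rapamycin changes were −0.18 ± 0.04 and −0.13 ± 0.04, and that of Nop14 was not called without any 1 of the 3 Luc ethanol libraries or without Luc rapamycin library 1 (edgeR adjusted p 0.052 to 0.084).

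Ddx52 and Nol6 rose by 0.43 ± 0.06 and 0.36 ± 0.06 with the Crebl2 siRNA and did not pass with rapamycin under either siRNA. Without Crebl2 ethanol library 2, Nol6 passed with rapamycin on the Crebl2 siRNA (−0.19, edgeR adjusted p = 0.015). Ddx10 rose by 0.21 ± 0.06 and fell with rapamycin by 0.21 on the log2 scale (adjusted p = 0.0087, 0.051 without Luc ethanol library 3). Its fall on the Crebl2 siRNA (−0.16 ± 0.06, adjusted p = 0.034) was not called in 15 of 21 alternatives, including without any 1 of the 3 Luc rapamycin libraries, without Crebl2 ethanol library 1 or 2 and without any 1 of the 3 Crebl2 rapamycin libraries (0.076 to 0.22). Nop14 also lost its call there without Crebl2 rapamycin library 1 or 3 (0.12 and 0.099) and with the compared groups only (0.065).

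The 4 late factors act when the small subunit leaves the nucleolus and matures in the cytoplasm. Tsr1, Ltv1 and Pno1 rose with the Crebl2 siRNA by 0.51 ± 0.05, 0.46 ± 0.04 and 0.44 ± 0.05. With rapamycin they changed by −0.60 ± 0.05, −0.60 ± 0.05 and −0.54 ± 0.05, all called. Pno1 is the partner that guards the cleavage site of the endonuclease Nob1, and Nob1 did not follow it.

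Nob1 (chr8:107412489-107425049), which cuts the last precursor of the small subunit rRNA, rose with each agent. Its libraries read 69.4, 67.1 and 68 CPM in the controls, 89.4, 88.2 and 94.7 with the Crebl2 siRNA, 78.1, 84.7 and 78.8 with rapamycin and 104, 115 and 113 with both. The 4 groups did not overlap, and the group with both agents was the highest. The Crebl2 siRNA raised it by 0.41 ± 0.05 in ethanol and 0.46 ± 0.05 in rapamycin (edgeR adjusted p = 1.3e-05 and 5.7e-06). Rapamycin raised it by 0.24 ± 0.05 with the Luc siRNA and by 0.28 ± 0.05 with the Crebl2 siRNA (adjusted p = 0.0013 and 0.00024). These calls held in all 21 alternatives.

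**Figure D4:**
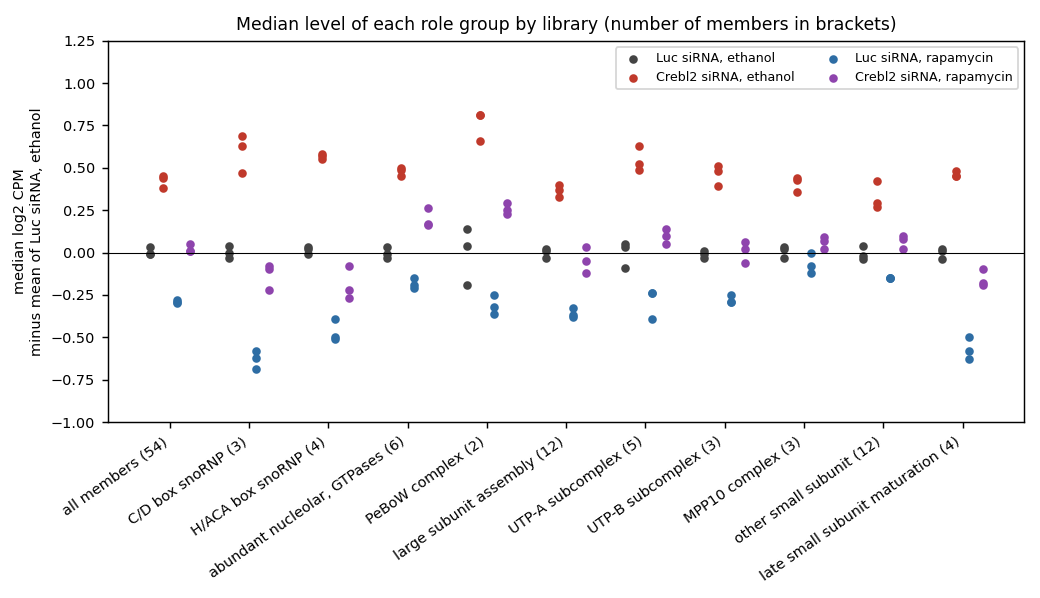
Median over the members of each role group of log2 CPM minus the mean log2 CPM of the Luc libraries in ethanol; each point is 1 library and the number of members is in brackets. In all groups the Crebl2 libraries in ethanol are the highest; the Luc libraries in rapamycin are lowest in every group except that one of them is level with the controls in the MPP10 group.

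By role, the largest median rise with the Crebl2 siRNA in ethanol was 0.76 for the 2 PeBoW members, then 0.57 for the 3 C/D box and 0.56 for the 4 H/ACA box proteins. The lowest was 0.33, for the 12 other processome factors. Medians with rapamycin on the Luc siRNA were −0.64 for C/D box, −0.57 for late small subunit and −0.46 for H/ACA box proteins. They were −0.40 for large subunit factors, −0.32 for PeBoW, −0.30 for UTP-A and −0.26 for UTP-B. The smallest were −0.18 for the abundant nucleolar proteins and GTPases, −0.16 for the other processome factors and −0.07 for MPP10. Both C/D box medians are the values of Nop58, which describe only part of that gene. Differences between roles were not tested.

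Set against the controls, the libraries with both agents gave a median log2 ratio of group means of 0.02 over the 54 members, from −0.51 to 0.70, beside −0.03 over all genes. In 19 members all 3 libraries with both agents were above all controls, against 24.3% of all genes. In 13 they were below all controls, against 28.7% of all genes, and in 22 the groups overlapped. The extremes were Nob1 at the high end and Mrto4 at the low end by these ratios. By group means, 24 members had the order Crebl2 siRNA in ethanol, both agents, controls, Luc siRNA in rapamycin, from high to low, an order held by 7.79% of all genes. Another 20 had the controls and the group with both agents exchanged, as did 14.3% of all genes.

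Levels can be compared between genes only per length, here as mean CPM over all libraries per kilobase of countable exon. Ncl and Fbl led with 138 and 137, followed by Nop56 and Bop1 at 107 each. Next to them came Nhp2 at 75.1, Ddx21 at 72.2, Imp3 at 63.1 and Nop10 at 61.8. Rrp12 at 7.92, Nop58 at 2.85 and Wdr12 at 0.869 were the lowest among tested members. Neighbours in this order were not compared by test. All counts of Nop58 lay on its long transcript with 7826 bases of its own, which makes its value per length a low one. For Wdr12, 92% of the counts lay on 1 transcript with 7264 bases of its own.

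Another 107 genes of the same pathway were taken from textbook lists, also with earlier results of these data known. Of these, 106 were found and 94 tested. After the Crebl2 siRNA, 60 of them rose and 2 fell in ethanol, and 54 rose and 2 fell in rapamycin. Over all tested genes 21.4% were higher and 17% lower in ethanol, and 16.3% and 16.8% in rapamycin. With rapamycin 45 fell and 8 rose on the Luc siRNA (21.6% lower and 19.5% higher over all genes), and 58 fell and 6 rose on the Crebl2 siRNA (25.6% and 19.7%). The medians over these 94 were 0.28, 0.17, −0.15 and −0.26 in the same order, beside 0.01, −0.01, 0.02 and −0.01 over all genes. The counts of the single lists that follow are for the Crebl2 siRNA in ethanol and for rapamycin on the Luc siRNA, and read against these shares.

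Of 34 other large subunit factors tested, 24 rose with the Crebl2 siRNA, among them Mybbp1a (0.54 ± 0.05, SE), and 14 fell and 4 rose with rapamycin, the last a smaller share than the 19.5% of all genes. Nop53, a factor that brings the exosome to the large subunit, rose by 0.71 ± 0.06 with rapamycin, from 228 ± 11.6 to 373 ± 24.7 CPM (mean ± SD, n = 3). Rpf2, which works with Rrs1, changed by −0.95 ± 0.24, at a mean of 0.971 ± 0.0889 CPM in the controls and with 33.1% countable bases. The largest negative siRNA difference in that list was that of Senp3 (−0.46 ± 0.22, edgeR adjusted p = 0.12). With no count filter it was called, at −0.49 (adjusted p = 0.022), as was its interaction (0.81, adjusted p = 0.048). Over its alternatives the first of these p-values ran from 0.022 to 0.44 and the second from 0.048 to 0.48.

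Of 6 factors of cytoplasmic large subunit maturation, 3 rose and 1 fell with the Crebl2 siRNA, the 1 being close to the 17% of all genes called lower. The export adaptor Nmd3 rose by 0.42 ± 0.06 and changed by −0.34 ± 0.06 with rapamycin. Zfp622 rose by 0.35 ± 0.08 with rapamycin, and the GTPase Efl1 had the lowest siRNA value (−0.35 ± 0.31, edgeR adjusted p = 0.41). Among 31 other small subunit factors, 20 rose with the Crebl2 siRNA, and 16 fell and 2 rose with rapamycin. The methyltransferase Dimt1 gave −0.50 ± 0.05 and Utp14a 0.37 ± 0.04 with rapamycin. By siRNA the ends of that list were Tcof1 (0.52 ± 0.23, adjusted p = 0.089, or 0.71 and 0.018 without Crebl2 ethanol library 2, 3.2% countable) and Utp3 (−0.08 ± 0.05, adjusted p = 0.21).

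Of 9 snoRNP assembly genes, 5 rose and 1 fell with the Crebl2 siRNA, and 4 fell with rapamycin. Snu13, a core protein of the C/D box particle, rose by 0.39 ± 0.05, and Pih1d1 fell by 0.53 ± 0.16 on the log2 scale at 18.6% countable bases (edgeR adjusted p = 0.018). That call, the 1 fall of the list, was lost without Luc ethanol library 2 (0.082), without Crebl2 ethanol library 1 (0.095) or 3 (0.05), and with DESeq2 (0.05). Znhit3 changed by −0.67 ± 0.09 with rapamycin, and Naf1 by 0.07 ± 0.08 (adjusted p = 0.56). Among 14 rRNA exonuclease genes, 8 rose with the Crebl2 siRNA, and 9 fell and 1 rose with rapamycin. Exosc8, an exosome ring subunit, changed by −1.03 ± 0.06 with rapamycin, from 50.1 ± 0.662 to 24.6 ± 0.136 CPM (mean ± SD, n = 3), and the ring subunit Exosc5 rose by 0.53 ± 0.14. By siRNA in ethanol the list ran from Exosc3 (0.04 ± 0.06, adjusted p = 0.63) to the catalytic subunit Exosc10 (0.76 ± 0.25, adjusted p = 0.025, 3.9% countable). The call of Exosc10 was lost without Luc ethanol library 1 (0.69, adjusted p = 0.074) or 2 (0.60, 0.11) or Crebl2 ethanol library 2 (0.56, 0.12).

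Other genes were ranked by how closely their log2 CPM followed the mean of the members over the 12 libraries. Only tested protein-coding genes outside the member, pathway and marker lists were ranked, without Crebl2. The first 5 were Ccnd2, Pa2g4, Atic, Prmt5 and Prl2c3 (Pearson r = 0.996, 0.995, 0.994, 0.993 and 0.993, a description over 4 groups). Ccnd2, a cyclin of early cell cycle entry, had means of 39.9 ± 1.38 CPM in the controls, 99.1 ± 5.74 with the Crebl2 siRNA, 21 ± 0.633 with rapamycin and 43.9 ± 3.23 with both (SD, n = 3). Pa2g4, a growth-regulated protein also found in the nucleolus, had 379 ± 7.62, 575 ± 3.85, 275 ± 10.2 and 391 ± 26.4 in the same order. Atic is an enzyme of purine synthesis and Prmt5 an arginine methyltransferase. Prl2c3 belongs to a family of near-identical copies, so its counts are uncertain.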

How the data were processed

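Total RNA libraries from C2C12 cells, 4 groups of 3, were made with a stranded kit per the labels' protocols. The authors deposited whole-number read counts for 58611 Ensembl transcripts per library, with no normalization. Per the submitters' processing notes Trim Galore, TopHat and HTSeq were used and mm9 and GRCm38 are both named. Tool versions, annotation release, strandedness of the counting and the treatment of shared reads are not given in the sources used here.

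Transcript identifiers were matched to GENCODE M21 on GRCm38 (58264 matched, and unmatched ones held 0.038% of reads), and counts were summed per gene, since the test design had assumed gene counts. Among protein-coding transcripts, 8480 share every exonic base with another, and 99.3% of them had zero reads, against 32.0% of the 31661 that do not, so reads shared by listed transcripts are missing. The share of a gene's exonic bases held by 1 listed transcript is called countable. It was 100% for 46 members.

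The edgeR filter by group (minimum count 10) kept 13247 genes. Counts were TMM-scaled and tested in edgeR 4.0.16 (R 4.3.3, quasi-likelihood), fitting 4 group means to 12 libraries at once, and Benjamini-Hochberg adjustment over all tested genes at 0.05. The standard error was taken from the F statistic as the log2 fold change over its square root. The common coefficient of biological variation was 6.9%. The similarity of a gene to the members is Pearson's r of log2 CPM (prior count 2) with the mean of the tested members' log2 CPM, each member standardized first.

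The members and lists were chosen with earlier results of these data known. Values in every library are given for the most abundant member by CPM of each role, the 2 largest and 2 smallest changes of each comparison, the 3 largest interactions and members called against the majority; Gnl2 was added after its values were seen. Of other pathway genes, the largest rise and fall of each list in the first siRNA and rapamycin comparison are named. Alternatives tried were DESeq2 1.42.0, RLE scaling, the compared groups only, filters at a minimum count of 50 or none, the replicate number as a block, each library left out, the main transcript of a gene only, genes at least 90% countable, and TMM factors without members and ribosomal protein genes. Replicates differed by more than sampling noise in every group.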

Additional observations from a re-analysis of the deposited data

How the results depend on the processing

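No call of a named gene changed direction under any alternative. The count of members called lower with the Crebl2 siRNA in rapamycin went from 2 to 1 with RLE scaling, no count filter, the replicate block, DESeq2, and TMM factors without members and ribosomal protein genes. DESeq2 called 1 interaction lower. The median for rapamycin with the Luc siRNA (−0.30) was −0.35 with no count filter, −0.29 at a minimum count of 50, −0.31 with the compared groups only and −0.33 without members and ribosomal protein genes in the scaling. The median interaction (−0.13) was −0.07 with no count filter and −0.07 with that scaling. The siRNA median in ethanol was 0.40 with the compared groups only. The causes were not tested.

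Leaving out each library gave 50 to 51 members higher and 1 to 1 lower with the Crebl2 siRNA in ethanol (median 0.41 to 0.45), and 46 to 47 higher and 0 to 2 lower in rapamycin (median 0.31 to 0.37). Rapamycin gave 37 to 42 lower and 1 to 3 higher with the Luc siRNA (median −0.35 to −0.30), and 40 to 46 lower and 2 to 2 higher with the Crebl2 siRNA (median −0.47 to −0.39). The median interaction ran from −0.14 to −0.04, with 0 to 0 calls. Of the called members, 51 of 52, 46 of 48, 37 of 43 and 42 of 47 kept their call in every alternative, in the same order of comparisons.

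The labels give replicate numbers 1 to 3 in each group. Deviations of same-numbered libraries had correlations of −0.29 to 0.12 (median −0.06), and 3 of 12 libraries correlated best with their own number, so the numbers were not taken as pairs. With the replicate block 50 members rose and 1 fell with the Crebl2 siRNA in ethanol, 46 rose and 1 fell in rapamycin, 38 fell and 3 rose with rapamycin on the Luc siRNA, and 44 fell and 2 rose on the Crebl2 siRNA, with 0 interactions.

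Low counts limit Mrto4 and Wdr12 among tested members, and for both the reads shared by listed transcripts are missing. Of the 46 members that are at least 90% countable, 44 rose and 1 fell with the Crebl2 siRNA in ethanol, and 35 fell and 3 rose with rapamycin on the Luc siRNA. Levels are relative within a library, so a change in total RNA per cell was not measured.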
